A study of Homo sapiens with 6 samples.

Results

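The 7 mRNAs of respiratory complex I that are encoded by the mitochondrial genome were followed in RNA immunoprecipitations of 2 cytoplasmic poly(A)-binding proteins. They are MT-ND1, MT-ND2, MT-ND3, MT-ND4, MT-ND4L, MT-ND5 and MT-ND6, chosen by gene name, and they make up 7 of the 58302 genes listed in each of the authors' deposited tables. All 7 had reads in every library. RNA immunoprecipitation followed by sequencing (RIP-seq) pulls a protein down with an antibody and sequences the RNA that comes with it. It was done in HepG2, a human hepatocellular carcinoma line with hepatocyte features. Per the labels, 2 libraries came from an antibody against PABPC4 in cells overexpressing PABPC4, and 2 came from an antibody against PABPC1 in cells overexpressing PABPC1. The control was rabbit IgG, with 1 library from each of these overexpressing populations. All 6 libraries therefore came from cells that overexpress one of the proteins, and a library of unprecipitated RNA was not analysed here. Nothing in the labels places the 2 PABPC4 libraries, or the 2 PABPC1 libraries, in separate cultures. The 2 IgG libraries came from different populations, so their spread includes any difference between these. Each comparison with IgG thus uses a control that came in part from cells overexpressing the other protein. The limma p-values below cover the spread among these 6 libraries, which may be technical within the PABPC4 and PABPC1 pairs. The spread used for each gene is mostly borrowed from other genes (3 residual against 33.1 prior degrees of freedom). A gene's own gap between 2 libraries of a group thus counts for little in its SE and p-value.

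Complex I takes electrons from NADH, passes them to ubiquinone and pumps protons across the inner mitochondrial membrane. Its hydrophobic core subunits are made inside the mitochondrion, while the other subunits are encoded in the nucleus and imported. MT-ND2, MT-ND4 and MT-ND5 encode the antiporter-like, proton-pumping subunits of the membrane arm. MT-ND1 encodes the subunit that forms much of the ubiquinone chamber, and MT-ND3, MT-ND4L and MT-ND6 encode smaller membrane subunits beside it. Mitochondrial mRNAs are cut from long transcripts of the whole genome, and most receive a short poly(A) tail from a polymerase of the mitochondrial matrix. MT-ND6, the only one of the group on the light strand, is known to lack such a tail or to carry a very short one. PABPC1 and PABPC4 are known as cytoplasmic proteins that coat the poly(A) tails of nuclear-encoded mRNA.

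In RefSeq coordinates of GRCh38.p14, the genes lie on the mitochondrial chromosome (MT), and each is a single coding stretch without introns. MT-ND1 lies at 3307 to 4262, MT-ND2 at 4470 to 5511 and MT-ND3 at 10059 to 10404. MT-ND4L (10470 to 10766) and MT-ND4 (10760 to 12137) overlap by 7 nt and are carried by 1 mature mRNA. MT-ND5 (12337 to 14148) is followed directly on the other strand by MT-ND6 (14149 to 14673). Gene lengths recovered from the deposited values equalled the RefSeq lengths in 7 of 7 genes, from 297 nt for MT-ND4L to 1812 nt for MT-ND5. Use of strand in the counting is not stated in the labels. For MT-ND6 and MT-ND5, reads of the gene and reads of the opposite strand can therefore not be told apart.

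The tables held folds and p-values, from which the whole reads of each library were recovered (libraries are called A and B, since replicate numbers are not recoverable). Totals were 850190 and 841327 reads for PABPC4, 289217 and 277552 for PABPC1, and 133030 and 94235 for IgG. The libraries differed most in mitochondrial rRNA, which took 15.8% and 16.8% of PABPC4 reads, 41.0% and 35.5% of PABPC1 reads, and at least 56.1% and 53.8% of IgG reads. Hepatocyte markers were present, with 8 of 8 genes read and summed levels of 8112 and 8721 RPM (reads per 1000000 reads of the library) in PABPC4 libraries, 5975 and 6763 in PABPC1 libraries, and 3683 and 3502 in IgG libraries, where TTR was at 0. Markers of blood cells ran the other way. The 3 haemoglobin genes summed to 548 and 373 RPM with PABPC4, 1051 and 1142 with PABPC1, and 3210 and 3247 with IgG. The 4 leukocyte genes summed to between 12.9 and 20.2 with PABPC4, 41.5 and 50.4 with PABPC1, and 180 and 255 with IgG. The 2 fibroblast genes summed to 12.9 and 7.13 with PABPC4, 24.2 and 10.8 with PABPC1, and 143 and 149 with IgG, and no gene of these 3 lists was at 0 in any group. Their part in the results below was not tested. PABPC4 mRNA stood at 162 and 183 RPM in PABPC4 libraries and 111 and 155 in PABPC1 libraries, and PABPC1 mRNA at 590 and 676 in PABPC4 libraries and 595 and 634 in PABPC1 libraries. These are precipitated RNA levels and do not check the overexpression.

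**Figure D1:**
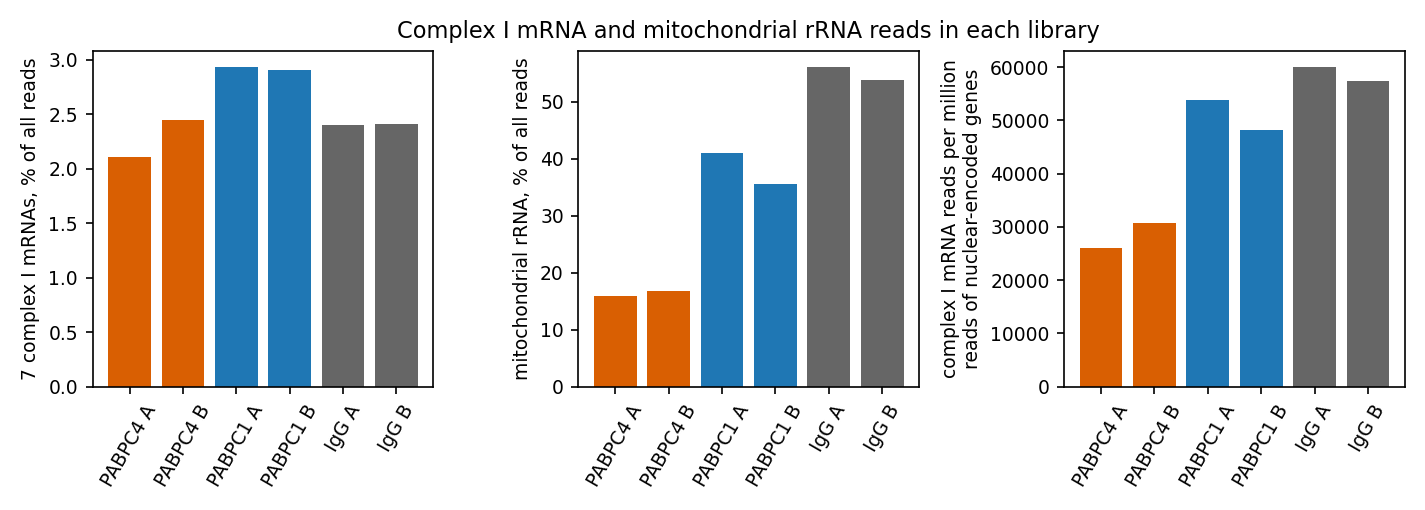
Share of all reads in the 7 complex I mRNAs (left, %), share in mitochondrial rRNA (middle, %, the lower bound) and complex I mRNA reads per 1000000 reads of nuclear-encoded genes (right), 1 bar per library. The members' share of all reads spans only 2.11% to 2.94%, while mitochondrial rRNA spans 15.8% to 56.1%, and against nuclear-encoded reads the PABPC4 libraries are the lowest.

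The complex I mRNAs together made up a similar small part of every library. They took 2.11% and 2.45% of all reads with PABPC4, 2.94% and 2.90% with PABPC1, and 2.401% and 2.412% with IgG. The PABPC1 libraries were the highest, and the PABPC4 libraries lay on both sides of the IgG libraries. Set against reads of nuclear-encoded genes alone, the order changed: 26084 and 30765 member reads per 1000000 nuclear-encoded reads with PABPC4, 53806 and 48224 with PABPC1, and 60052 and 57316 with IgG. On this scale the 3 groups did not overlap, and the PABPC4 mean was 0.484 of the IgG mean, while the PABPC1 mean was 0.869 of it. Set against mitochondrial rRNA, the order was reversed, with 13.3 and 14.6 member reads per 100 rRNA reads for PABPC4, 7.16 and 8.18 for PABPC1, and 4.25 and 4.43 for IgG. With 2 libraries against 2, an exact two-sided permutation test of such a value cannot go below p = 0.333. These are bulk precipitates, in which fewer cells or mitochondria holding a transcript and less of it per cell cannot be told apart.

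Per length, the members kept nearly the same order in all 3 groups. Levels are given in RPKM, the RPM divided by gene length in kilobases, as mean ± SD of 2 libraries. MT-ND6 was the highest, at 8248 ± 435 RPKM with PABPC4, 10832 ± 227 with PABPC1 and 9950 ± 363 with IgG. Its reads may include those of the opposite strand, since use of strand is not stated. MT-ND4 came next at 4822 ± 666 with PABPC4, 6858 ± 134 with PABPC1 and 5551 ± 358 with IgG. MT-ND5 followed at 3381 ± 319, 3973 ± 75.8 and 3363 ± 197 in PABPC4, PABPC1 and IgG libraries. These 3 genes did not overlap with their neighbours in the order in any group. MT-ND1 came after it at 2589 ± 372 RPKM with PABPC4, 3218 ± 75.4 with PABPC1 and 2410 ± 95.3 with IgG. MT-ND2 was at 2423 ± 184 with PABPC4, 2835 ± 166 with PABPC1 and 2148 ± 58.7 with IgG, and it overlapped with MT-ND1 only in the PABPC4 libraries. The shortest genes were the lowest per length. MT-ND3 had 1082 ± 82.9 RPKM with PABPC4, 1249 ± 57.4 with PABPC1 and 927 ± 9.98 with IgG. MT-ND4L had 1102 ± 231 with PABPC4, 1377 ± 77.5 with PABPC1 and 794 ± 192 with IgG, and its libraries overlapped those of MT-ND3 in the PABPC4 and IgG groups. In single-library reads MT-ND4L is the thinnest of the group, with 26 and 26 reads in the IgG libraries.

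**Figure D2:**
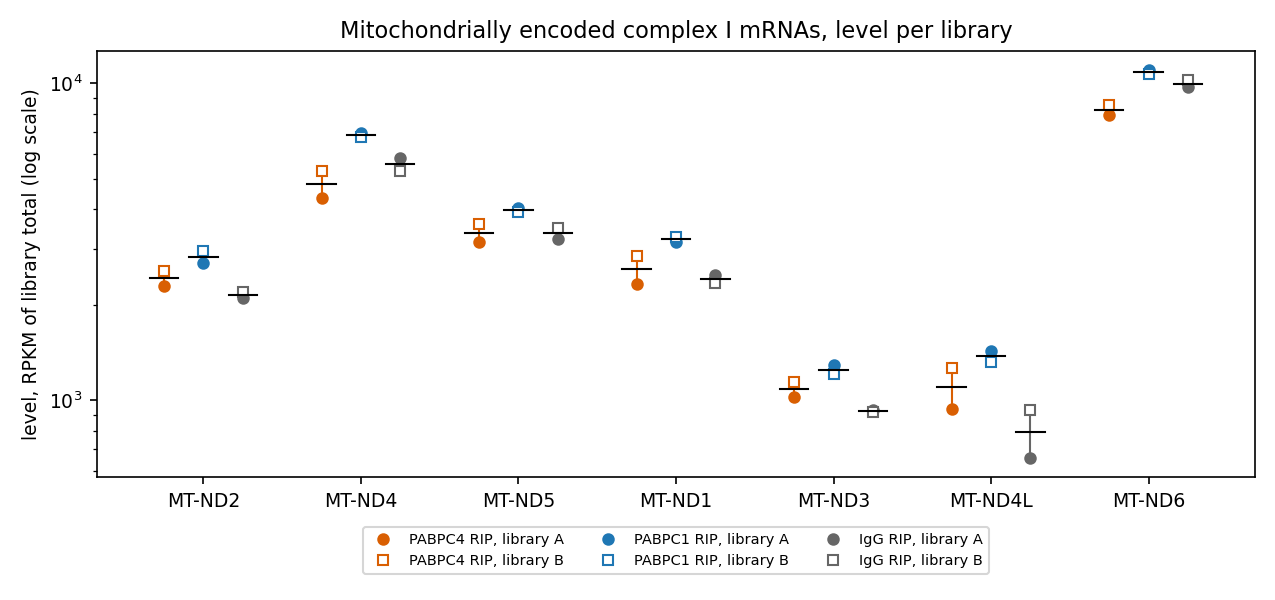
Level of each complex I mRNA in each library, in RPKM on a log axis, for PABPC4, PABPC1 and IgG immunoprecipitations (circle, library A; square, library B; bar, mean of 2 libraries). For every gene both PABPC4 libraries lie below both PABPC1 libraries, and MT-ND6 is the highest and MT-ND3 or MT-ND4L the lowest in each group.

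Libraries of 1 antibody were not equally close. Scaled to its total, PABPC4 library B held more of every member than library A, by 1.08-fold (MT-ND6) to 1.35-fold (MT-ND4L), and the exact 95% counting interval of this ratio left out 1 for 6 of 7 members. The ratio of library B to library A ran from 0.923 to 1.09 for PABPC1 and from 0.913 to 1.41 for IgG, with 0 of 7 intervals leaving out 1 in either. The spread between the PABPC4 libraries exceeded counting error, the only error that the deposited p-values cover.

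The comparison of PABPC4 with PABPC1 asks whether the 2 proteins brought down different amounts of these mRNAs, and no deposited comparison sets them side by side. All 7 complex I mRNAs were lower in both PABPC4 libraries than in both PABPC1 libraries, and 5 of 7 fell significantly (limma voom on recovered reads scaled to library totals, Benjamini-Hochberg adjusted p under 0.05 over 7987 genes). Of all genes tested, 0.689% were called lower, and 5.77% had PABPC4 libraries wholly below the PABPC1 libraries. The members' median log2 fold was -0.32, against a median of 0.45 over all genes tested, and 6.11% of tested genes lay below the members' median. The genes tested had 10 or more reads in 2 or more libraries, which is reached most easily in the deeper PABPC4 libraries. This favours genes high in PABPC4, so the members' place among them is not an unbiased rank.

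Among the antiporter-like subunits, MT-ND4 had the largest difference. It had 5995 and 7293 RPM in PABPC4 libraries, against 9581 and 9321 in PABPC1 libraries, and fell by 0.52 on the log2 scale (SE 0.05, limma adjusted p = 2.96e-09). MT-ND5 had 5718 and 6534 RPM with PABPC4, against 7296 and 7101 with PABPC1, and fell by 0.24 (SE 0.05, limma adjusted p = 0.000468). MT-ND2 had 2389 and 2660 RPM with PABPC4, against 2832 and 3077 with PABPC1, and fell by 0.23 (SE 0.06, limma adjusted p = 0.0105). For MT-ND4 the gap between the groups was wider than the gap within either pair of libraries. For MT-ND5 it was narrower than the gap within the PABPC4 pair, and for MT-ND2 narrower than the gap within either pair.

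Among the subunits near the ubiquinone chamber, MT-ND6 had 4168 and 4492 RPM with PABPC4, against 5771 and 5603 with PABPC1, and fell by 0.40 on the log2 scale (SE 0.04, limma adjusted p = 1.52e-08). MT-ND1 had 2224 and 2727 RPM with PABPC4, against 3025 and 3127 with PABPC1, and fell by 0.32 (SE 0.07, limma adjusted p = 0.00184). For MT-ND6 the gap between the groups was wider than the gap within either pair of libraries, and for MT-ND1 it was narrower than the gap within the PABPC4 pair. The 2 short mRNAs did not pass the test. MT-ND3 had 354 and 395 RPM with PABPC4, against 446 and 418 with PABPC1 (log2 fold -0.21, SE 0.13, 95% interval of the fold 0.714 to 1.04). MT-ND4L had 279 and 376 RPM with PABPC4, against 425 and 393 with PABPC1 (log2 fold -0.34, SE 0.15, 95% interval of the fold 0.636 to 0.979, limma adjusted p = 0.133). Their intervals hold the folds of most other members, so a smaller effect is not shown for them.

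Other scalings moved the log2 folds of all genes down together, the median of all genes going from 0.45 to -0.04 with nuclear totals. Folds already below 0 therefore stayed below 0 for all 7 members, and these scalings do not test the direction. The share of tested genes below the members' median was 6.11% at library totals and 6.20% at nuclear totals. With totals over nuclear-encoded genes, which leave out the unequal mitochondrial rRNA, 7 of 7 fell, by 0.70 (MT-ND3) to 1.00 (MT-ND4) on the log2 scale, where 2.48% of all genes were called lower and the median of all genes was -0.04. The calls rest on both PABPC1 libraries: at library totals, 0 of 7 passed without PABPC1 library A and 2 without library B, where 4 and 7 of all genes were called lower. With limma-trend in place of voom 0 of 7 passed, where 2 of all genes were called lower.

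**Figure D3:**
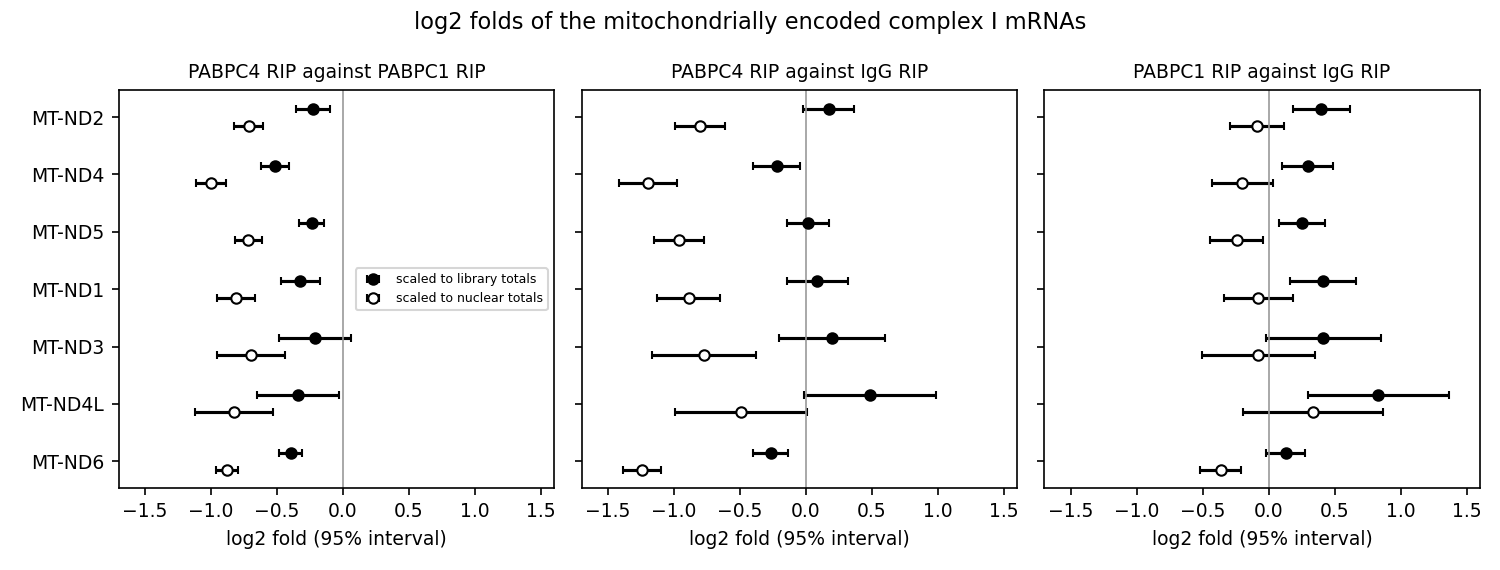
log2 folds of the 7 mRNAs in 3 comparisons (limma voom, 6 libraries), with 95% intervals, scaled to library totals (filled) or to totals over nuclear-encoded genes (open). PABPC4 is below PABPC1 at both scalings for all 7, from -0.52 to -0.21 at library totals. The folds against IgG move left by about the same amount for every gene when mitochondrial rRNA is left out of the totals.

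The comparison of PABPC4 with IgG asks what came down with PABPC4 beyond the background of the beads. The group as a whole had no common direction at library totals. The authors' deposited table called 0 of 7 members higher, where 5.54% of all genes with a p were called higher, and 2 of 7 lower, where 0.9% were. MT-ND4 had 5995 and 7293 RPM with PABPC4, against 7998 and 7301 with IgG, and the authors' deposited table lists it at 0.869-fold (adjusted p = 4.45e-07). MT-ND6 had 4168 and 4492 RPM with PABPC4, against 5089 and 5359 with IgG, and the authors' deposited table lists it at 0.829-fold (adjusted p = 3.59e-07). For both, the PABPC4 libraries lay below the IgG libraries, as in 2.5% of all genes tested, with 7293 in the higher PABPC4 library and 7301 in the lower IgG library for MT-ND4. The limma test, which includes the spread between libraries, kept MT-ND6 (log2 fold -0.27, SE 0.07, adjusted p = 0.00315) and not MT-ND4 (-0.22, SE 0.09, adjusted p = 0.0571), where 0.639% of all genes were called lower.

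The other 5 members had deposited folds between 1.01 and 1.39, none called. MT-ND4L was the highest of them, with 279 and 376 RPM with PABPC4 and 195 and 276 with IgG, at 1.39-fold in the authors' deposited table (adjusted p = 0.167). MT-ND2 had 2389 and 2660 RPM with PABPC4 and 2195 and 2282 with IgG, at 1.13-fold in the authors' deposited table (adjusted p = 0.110). MT-ND3, at 1.17-fold in the authors' deposited table (adjusted p = 0.868), had 354 and 395 RPM with PABPC4 and 323 and 318 with IgG. In these 3 genes both PABPC4 libraries were above both IgG libraries, as in 73.3% of all genes tested. MT-ND1 and MT-ND5 overlapped between the groups. The authors' deposited table lists MT-ND1 at 1.07-fold (adjusted p = 0.741) and MT-ND5 at 1.01-fold (adjusted p = 1).

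Most genes tested stood higher than this in the same comparison. The read filter here too favours genes high in the deeper PABPC4 libraries, so the members' place among them is not an unbiased rank. Over the 7987 genes tested with limma the median log2 fold of PABPC4 over IgG was 0.90, against 0.09 for the members, and 13.8% of genes lay below the members' median. With totals over nuclear-encoded genes the members fell together: 6 of 7 were called lower by limma, where 2.39% of all genes were, and the log2 folds ran from -1.24 (MT-ND6) to -0.49 (MT-ND4L, adjusted p = 0.297), with a median of -0.89. Without PABPC4 library A the deposited test called 3 members higher, where 6.17% of all genes were, and 1 lower, where 0.647% were. Without IgG library A it called 1 lower, where 0.636% of all genes were.

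The comparison of PABPC1 with IgG asks the same of PABPC1, with the same IgG libraries as reference. At library totals all 7 members were above both IgG libraries in both PABPC1 libraries, as were 43.8% of all genes tested. The authors' deposited table called 5 of 7 higher, where 1.34% of all genes with a p were called higher, and 0 of 7 lower, where 0.194% were. MT-ND4 had 9581 and 9321 RPM with PABPC1, against 7998 and 7301 with IgG, at 1.24-fold in the authors' deposited table (adjusted p = 7.37e-11). MT-ND1 had 3025 and 3127 RPM with PABPC1, against 2368 and 2239 with IgG, at 1.34-fold in the authors' deposited table (adjusted p = 4.22e-06). The folds were small and alike across the antiporter-like subunits. The authors' deposited table lists MT-ND2 at 1.32-fold (adjusted p = 1.18e-05) and MT-ND5 at 1.18-fold (adjusted p = 8.16e-06).

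MT-ND4L had the largest fold, with 425 and 393 RPM with PABPC1 against 195 and 276 with IgG, at 1.74-fold in the authors' deposited table (adjusted p = 0.0152). Its exact 95% counting interval, 1.32 to 2.47, was the widest of the 7. MT-ND6 had the smallest, with 5771 and 5603 RPM against 5089 and 5359 with IgG, at 1.09-fold in the authors' deposited table (adjusted p = 0.282). MT-ND3, at 1.35-fold in the authors' deposited table, was not called (adjusted p = 0.580). With the spread between libraries included, limma called 2 of 7 higher, where 4.53% of all genes were: MT-ND1 (log2 fold 0.41, SE 0.12, adjusted p = 0.0455) and MT-ND2 (0.40, SE 0.11, adjusted p = 0.0241). The members' median log2 fold of 0.40 lay close to the 0.43 of all genes tested.

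The enrichment over IgG depended on the scaling. With totals over nuclear-encoded genes, limma called 0 of 7 higher, where 0.338% of all genes were, and 1 of 7 lower, where 0.538% were. That gene was MT-ND6, which fell by 0.36 on the log2 scale (SE 0.08, limma adjusted p = 0.00781). MT-ND4L alone kept a fold above 1 (log2 fold 0.34, SE 0.26, adjusted p = 0.631), and 2 of 7 had an unadjusted p under 0.05. The deposited test repeated on these totals called 0 higher, where 0.154% of all genes were, and 3 lower, where 0.433% were. Without IgG library A at library totals it called 2 higher, where 0.293% of all genes were.

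**Figure D4:**
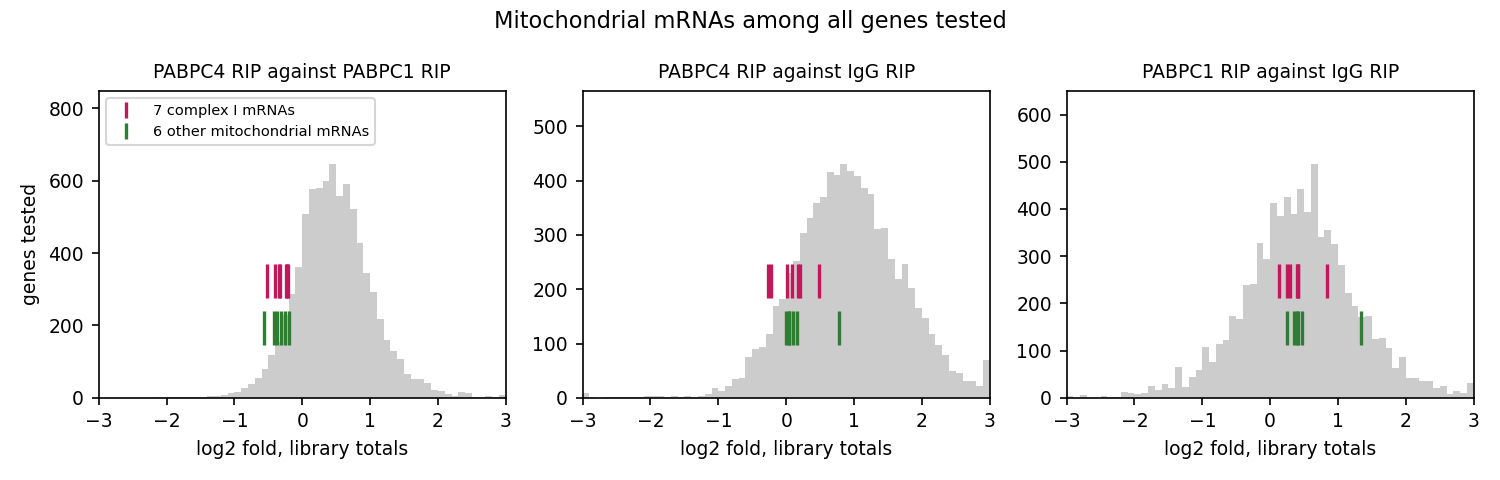
Distribution of log2 folds over all 7987 genes tested (grey, bins of 0.1, values beyond 3 placed in the end bins; limma voom at library totals), with the 7 complex I mRNAs and the 6 other mitochondrial mRNAs as ticks. In PABPC4 against PABPC1 both sets of ticks lie left of the bulk (medians -0.32 and -0.34 against 0.45). In PABPC1 against IgG their medians lie in its middle (0.40 and 0.40 against 0.43), with ticks up to 0.83 and 1.35.

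Shares within the group do not depend on how libraries are scaled. MT-ND4 took 28.4% and 29.8% of the members' reads with PABPC4, 32.6% and 32.1% with PABPC1, and 33.3% and 30.3% with IgG. It was lower in both PABPC4 libraries than in the other 4. MT-ND5 took 27.1% and 26.7% with PABPC4, 24.8% and 24.5% with PABPC1, and 24.3% and 26.3% with IgG, and MT-ND2 took 11.3% and 10.9% with PABPC4, 9.64% and 10.6% with PABPC1, and 9.14% and 9.46% with IgG. Both were higher in the PABPC4 libraries than in all others. MT-ND6 took 19.7% and 18.4% with PABPC4, 19.6% and 19.3% with PABPC1, and 21.2% and 22.2% with IgG. Its share was lower in all 4 libraries of the poly(A)-binding proteins than in the 2 IgG libraries. MT-ND1 took 10.5% and 11.1% with PABPC4, 10.3% and 10.8% with PABPC1, and 9.86% and 9.28% with IgG. MT-ND3 took 1.68% and 1.61% with PABPC4, 1.52% and 1.44% with PABPC1, and 1.35% and 1.32% with IgG. MT-ND4L took 1.32% and 1.53% with PABPC4, 1.45% and 1.35% with PABPC1, and 0.814% and 1.14% with IgG, so these 3 were higher in each of the 4 than in either IgG library. The shares of a library are not independent, since a lower share of any member raises those of the others. A higher share is thus not a higher level: MT-ND5 and MT-ND2 had lower levels with PABPC4 than with PABPC1 at library totals. No test was run on the shares.

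Neighbouring genes show the same shifts as ratios. MT-ND6 had 70.7 reads per 100 reads of its neighbour MT-ND5 with PABPC4 (exact 95% counting interval of the summed reads 68.6 to 72.9), 79.0 with PABPC1 (75.4 to 82.8) and 86.0 with IgG (79.5 to 93.0). The PABPC4 interval lay below both others, and the PABPC1 and IgG intervals overlapped. Library by library the ratio was 72.9 and 68.7 with PABPC4, 79.1 and 78.9 with PABPC1, and 87.1 and 84.4 with IgG, and the 3 groups did not overlap. MT-ND4L, which shares its mRNA with MT-ND4, had 4.92 reads per 100 MT-ND4 reads with PABPC4 (4.51 to 5.36), 4.33 with PABPC1 (3.78 to 4.94) and 2.97 with IgG (2.21 to 3.91). Across libraries the ratio was 4.65 and 5.15 with PABPC4, 4.44 and 4.21 with PABPC1, and 2.44 and 3.78 with IgG, so the IgG pair was the lowest and the least alike. The other overlapping pair of the genome, MT-ATP8 and MT-ATP6 (46 nt), likewise had 19.9 MT-ATP8 reads per 100 MT-ATP6 reads with PABPC4, 22.5 with PABPC1 and 12.2 with IgG. The labels do not state how reads in the overlaps were counted. Since use of strand is not stated either, MT-ND6 and MT-ND5 reads may include those of the opposite strand.

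**Figure D5:**
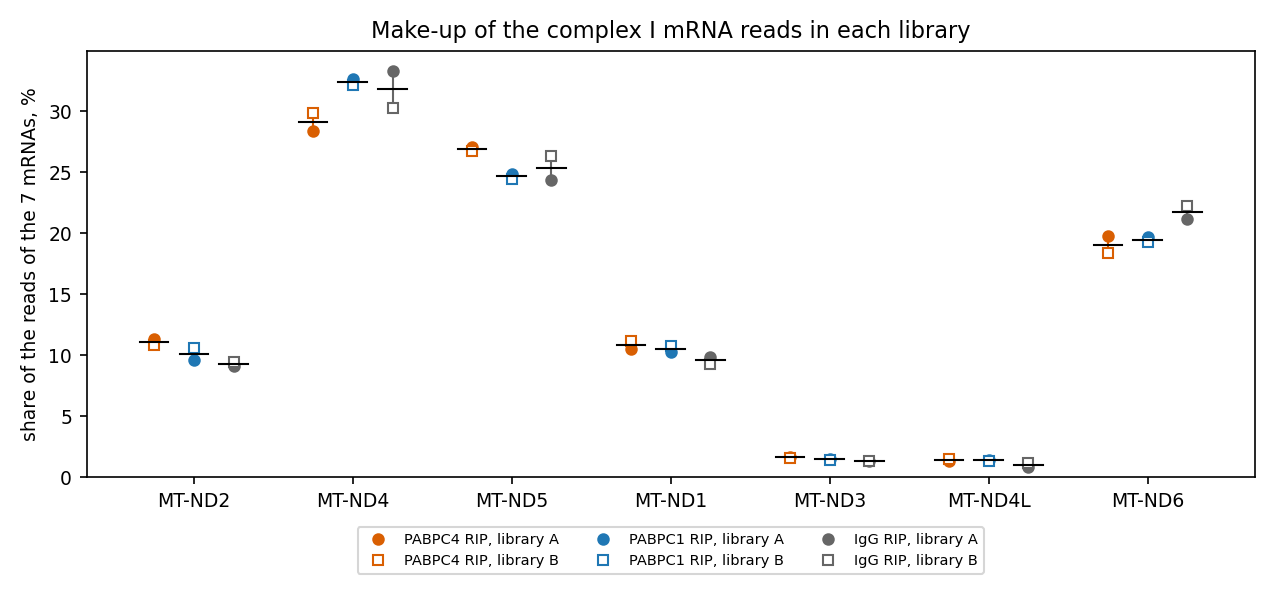
Share of each complex I mRNA in the reads of all 7 (%), for each PABPC4, PABPC1 and IgG library (circle, library A; square, library B; bar, mean). MT-ND4 is lowest and MT-ND5 and MT-ND2 highest in the PABPC4 libraries, and MT-ND6 is highest in the IgG libraries.

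The other 6 mitochondrial mRNAs encode subunits of cytochrome c oxidase, ATP synthase and the cytochrome bc1 complex. In PABPC4 against PABPC1 they moved with the complex I mRNAs. At library totals limma called 5 of the 6 lower in PABPC4 than in PABPC1, where 0.689% of all genes were. The median log2 fold of the 6 was -0.34, against 0.45 over all genes tested. MT-CO3, a cytochrome c oxidase subunit, fell by 0.41 (SE 0.07, limma adjusted p = 3.89e-05), MT-CO1, its catalytic subunit, by 0.31 (SE 0.06, limma adjusted p = 0.000178), and MT-CYB, the cytochrome b of the bc1 complex, by 0.20 (SE 0.06, limma adjusted p = 0.0159). MT-ATP6 and MT-ATP8, membrane subunits of ATP synthase, fell by 0.38 (SE 0.09, limma adjusted p = 0.00242) and 0.56 (SE 0.14, limma adjusted p = 0.00456). MT-CO2, the cytochrome c oxidase subunit that takes up electrons, had -0.25 (SE 0.10, limma adjusted p = 0.0895). Against IgG, the authors' deposited table called 6 of the 6 higher with PABPC1, where 1.34% of all genes with a p were. With PABPC4 it called 1 of the 6 higher, where 5.54% were, and 0 lower, where 0.9% were. That gene was MT-ATP8, with 42 IgG reads. The authors' deposited table lists it at 1.79-fold for PABPC4 (adjusted p = 0.0102) and 2.62-fold for PABPC1 (adjusted p = 2.23e-06). Member reads per read of these 6 mRNAs were 2.01 and 2.03 with PABPC4, 2.09 and 2.10 with PABPC1, and 2.26 and 2.24 with IgG. The 3 groups did not overlap, and the mean ratio was 0.965 for PABPC4 over PABPC1 and 0.898 for PABPC4 over IgG. The mitochondrial rRNAs differed far more. The authors' deposited table lists MT-RNR1, the small-subunit rRNA, at 0.323-fold for PABPC4 over IgG and 0.690-fold for PABPC1 over IgG. In the authors' deposited table MT-RNR2, the large-subunit rRNA, stands at 0.286-fold for PABPC4 over IgG and 0.694-fold for PABPC1 over IgG.

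Among 1846 genes with at least 200 reads, the 5 whose profile over the 6 libraries was nearest to that of the members' summed reads (smallest root mean square distance of log2 RPM, centred on each gene's mean) were MT-CO1 (0.0511), MT-CO3 (0.0666), MT-CYB (0.0945), NEAT1 (0.0966) and VKORC1L1 (0.104). The median distance was 0.599. NEAT1, a nuclear long non-coding RNA, had 5158 and 5241 RPM with PABPC4, 5923 and 6186 with PABPC1, and 4781 and 4988 with IgG. MT-CO2 (0.115) and MT-ATP6 (0.132) were close behind and MT-ATP8 stood further away (0.485). Points that share libraries share their depth and rRNA content.

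Nuclear-encoded partners of complex I were measured at far lower depth. Their reads, here and for the assembly and RNA factors below, are sums over the libraries of a group and are not scaled. The totals behind them were 1691517 reads for PABPC4, 566769 for PABPC1 and 227265 for IgG. Of 39 nuclear-encoded subunit genes, taken by name (NDUFA4, now assigned to cytochrome c oxidase, is among them), 14 had enough reads for limma. The authors' deposited table called 0 of 39 in either comparison with IgG. Of all genes with a p it called 5.54% higher and 0.9% lower for PABPC4, and 1.34% higher and 0.194% lower for PABPC1. At these shares few calls would fall among 39 genes. The 3 with most reads were NDUFA10, an accessory subunit, NDUFS1, the largest core subunit with iron-sulfur clusters, and NDUFB10, an accessory subunit of the membrane arm. In the authors' deposited table they stand at 1.95-fold, 0.874-fold and 2.09-fold for PABPC4 over IgG, and at 1.41-fold, 0.673-fold and 1.30-fold for PABPC1 over IgG. At library totals limma called 1 of 14 higher in PABPC4 than in IgG, where 28.7% of all genes were: NDUFS5, an accessory subunit, with 106 PABPC4 reads against 4 IgG reads (log2 fold 2.32, SE 0.68, adjusted p = 0.0108). Limma called 0 of 14 between PABPC4 and PABPC1, where 14.0% of all genes were called higher and 0.689% lower. Of the 14, 4 had an unadjusted p under 0.05. The median log2 fold of the 14 was 0.55, near the 0.45 of all genes and opposite in sign to the -0.32 of the mitochondrially encoded subunits. With totals over nuclear-encoded genes the median of the 14 was 0.05, beside -0.81 for the mitochondrially encoded 7. Limma then called NDUFS1 lower in PABPC4 than in IgG (log2 fold -1.23, SE 0.34, adjusted p = 0.0310), where 2.39% of all genes were. It also called NDUFA5, an accessory subunit named after its values were seen, lower in PABPC4 than in PABPC1, where 2.48% of all genes were called lower. NDUFA5 had 77 unscaled reads with PABPC4 and 42 with PABPC1 (log2 fold -1.17, SE 0.30, limma adjusted p = 0.0146).

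Of 19 complex I assembly factors, 11 were tested with limma at library totals. Relative to IgG, 4 were called higher with PABPC4, where 28.7% of all genes were, and 2 with PABPC1, where 4.53% were. COA1, part of an early assembly complex, had 126 PABPC4 reads and 33 PABPC1 reads against 2 IgG reads. The authors' deposited table lists COA1 at 9.83-fold for PABPC4 (adjusted p = 0.0111, exact 95% counting interval 2.30 to 70.7). COA1 alone of the 19 was called there, where 5.54% of all genes with a p were called higher. TIMMDC1, a membrane-arm assembly factor, had 52 PABPC4 reads against 0 IgG reads (limma adjusted p = 0.00136), and NDUFAF7, an arginine methyltransferase acting on a core subunit, had 35 against 0 (limma adjusted p = 0.0105). NDUFAF2, an assembly chaperone, had 100 against 6 (log2 fold 1.76, SE 0.66, limma adjusted p = 0.0411). NUBPL, which serves iron-sulfur cluster delivery, had 71 PABPC4 reads against 6 IgG reads and was not called (limma adjusted p = 0.413). ACAD9, an acyl-CoA dehydrogenase with an assembly role, was the 1 factor called higher in PABPC4 than in PABPC1, with 27 reads against 2 (limma adjusted p = 0.0377), where 14.0% of all genes were. With 2 PABPC1 reads and 3 IgG reads, ACAD9 could enter the test only through the PABPC4 libraries, so this call was favoured in advance. TIMMDC1 and NDUFAF7 likewise needed at least 1 PABPC4 library to enter. With totals over nuclear-encoded genes limma called 0 of the 11 in any comparison, where the share of all genes called per direction ran from 0.338% to 2.48%.

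Of 26 factors that make, process or stabilise mitochondrial RNA, 19 were tested with limma. The authors' deposited table called 0 of the 26. Of all genes with a p it called 5.54% higher and 0.9% lower for PABPC4, and 1.34% higher and 0.194% lower for PABPC1. LRPPRC, which binds and stabilises mitochondrial mRNAs with SLIRP, had 207 PABPC4 reads and 54 PABPC1 reads against 14 IgG reads, at 1.98-fold for PABPC4 and 1.54-fold for PABPC1 in the authors' deposited table. TFAM, which packages mitochondrial DNA, had 104 PABPC4 reads, 36 PABPC1 reads and 6 IgG reads, and TFB1M, an rRNA methyltransferase, had 116, 19 and 6 in the same groups. Limma at library totals called 4 of 19 higher in PABPC4 than in IgG, a smaller share than the 28.7% of all genes. Those in order of p were SLIRP (55 reads against 1, limma adjusted p = 0.0133), TRMT10C, a subunit of mitochondrial RNase P (33 against 0, limma adjusted p = 0.0246), and SUPV3L1, the RNA helicase of the mitochondrial degradosome (50 against 1, limma adjusted p = 0.0274). The remaining one, named after its values were seen, was GRSF1, a protein of mitochondrial RNA granules (85 against 4, limma adjusted p = 0.0303). TBRG4, a FASTK family protein, was the 1 called higher in PABPC4 than in PABPC1 (29 reads against 2, limma adjusted p = 0.0318), where 14.0% of all genes were. TBRG4 (2 PABPC1 and 3 IgG reads) and TRMT10C (4 and 0) could enter the test only through the PABPC4 libraries, so these calls were favoured in advance. SLIRP and SUPV3L1 (19 PABPC1 reads and 1 IgG read) each needed at least 1 PABPC4 library to enter. With totals over nuclear-encoded genes limma called 0 of the 19 in any comparison, where the share of all genes called per direction ran from 0.338% to 2.48%.

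Copies of the complex I genes in the nuclear genome, pseudogenes of mitochondrial origin, could share reads with the members. Of 213 listed, 38 had a read and 6 had at least 10 reads. Together they held 395 reads, equal to 0.652% of the 60577 reads of the members. MTND2P28 had 154 of them, MTND4P12 had 102 and MTND5P11 had 26. Their reads were 0.703% of the members' reads with PABPC4, 0.586% with PABPC1 and 0.494% with IgG.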

How the data were processed

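Both deposited tables hold comparisons with IgG: for each gene a linear fold (ratio of RIP over IgG), a p-value and an adjusted p, per the file headers. They have 0 columns of single libraries. Per the submitters' processing notes the tools were featureCounts 2.0.1, STAR 2.7.10a and Bowtie2 2.4.1, with GRCh38 (hg38) as build and no role given. The deposited p-value is that of a Yates-corrected chi-square on summed reads, and the deposited fold a ratio of mean RPKM with 0.005 added to IgG. The IgG side of both tables pools the 2 IgG libraries. Whole reads were recovered from these values for 22114 of 22607 genes with a read in all 6 libraries, with 491 known as sums only. In simulated data 20159 of 20159 split genes came out right. MT-RNR1 and MT-RNR2 were not recovered, and their reads are what other genes leave of each total, so rRNA shares are lower bounds.

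Reads were tested with limma 3.58.1 (voom, R 4.3.3) over the 7987 genes that had 10 or more reads in 2 or more libraries, with 3 groups, no covariates, 3 residual and 33.1 prior degrees of freedom, and library totals. Genes are called at a Benjamini-Hochberg adjusted p under 0.05. Counting intervals are exact 95% (Clopper-Pearson) and cover counting error only. Intervals of limma folds are 95% intervals from the limma SE. No sequences are printed. Members and lists were chosen with earlier results of these data known. Genes named beyond the mitochondrial mRNAs are the 3 with most reads and the 3 with the smallest adjusted p per list, and the 5 nearest profiles. For IgG comparisons, the chi-square with nuclear totals was planned, and limma with nuclear totals was added after seeing the data. For PABPC4 against PABPC1, totals without mitochondrial rRNA were not planned.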

Additional observations from a re-analysis of the deposited data

Results flagged for a closer look

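For 5 members the test of PABPC4 against PABPC1, which compares precipitated levels directly, passed the threshold, where 0.689% of all genes were called lower. With limma-trend in place of voom 0 members passed, where 0.025% of all genes were called lower. The calls also rest on both PABPC1 libraries, as given above. At library totals (limma voom) the log2 folds were -0.52 for MT-ND4, -0.40 for MT-ND6, -0.32 for MT-ND1, -0.24 for MT-ND5 and -0.23 for MT-ND2. Antibody and overexpressed protein differ together between these libraries and cannot be told apart.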

How the results depend on the processing

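No paired analysis was possible because the deposited values do not tell which recovered library is replicate 1 or 2. A trimmed-mean scaling was planned and not run, since the deposited tables hold no counts. Library totals of 94235 reads in the smaller IgG library limit what MT-ND3 and MT-ND4L can show. In PABPC4 against PABPC1 (main count 5 lower), 7 were lower with nuclear totals, median-of-ratios factors and totals without mitochondrial rRNA (2.48%, 2.77% and 2.07% of all genes), 1 with a filter of 1 read (0.599%), 0 with limma-trend (0.025%), and 0 to 6 when a library was left out (0.0501% to 1.74%). The median log2 ratio of -0.32 became -0.81, -0.84 and -0.76 under these 3 scalings and -0.45 to -0.15 with a library left out. In PABPC4 against IgG, 0 members were called higher (0 to 3 with a library left out, 1.76% to 6.41% of all genes) and 2 lower, which became 6 with nuclear totals (chi-square or limma, 2.1% and 2.39%) and with median-of-ratios factors (2.02%), 1 with limma at library totals (0.639%), and 1 to 2 with a library left out (0.545% to 0.647%). The median of 0.10 became -0.86, -0.84 and -0.81 under the 3 scalings, and -0.051 to 0.24 with a library left out. In PABPC1 against IgG, 5 called higher became 0 with nuclear totals (chi-square or limma, 0.154% and 0.338% of all genes) and median-of-ratios factors (0.171%), 2 with limma at library totals (4.53%), and 2 to 5 with a library left out (0.293% to 1.66%). The 0 called lower became 3 and 2 (chi-square, 0.433% and 0.342%) and 1 (limma, 0.538%). The median of 0.40 became -0.084, -0.027 and -0.071, and 0.34 to 0.38 with a library left out.

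Single members changed sign against IgG. For PABPC4 over IgG, log2 folds with nuclear totals (chi-square, then limma) and median-of-ratios factors were -0.88, -0.89 and -0.85 for MT-ND1, -0.80, -0.80 and -0.77 for MT-ND2, -0.75, -0.77 and -0.73 for MT-ND3, -0.46, -0.49 and -0.44 for MT-ND4L, and -0.96, -0.96 and -0.93 for MT-ND5. With a library left out, MT-ND1 ran from -0.057 to 0.24 and MT-ND5 from -0.082 to 0.11. For PABPC1 over IgG they were -0.079, -0.079 and -0.027 for MT-ND1, -0.085, -0.087 and -0.033 for MT-ND2, -0.061, -0.078 and -0.0088 for MT-ND3, -0.20, -0.20 and -0.14 for MT-ND4, -0.24, -0.24 and -0.19 for MT-ND5, and -0.36, -0.36 and -0.31 for MT-ND6. These scalings leave mitochondrial rRNA out of the totals or down-weight it. With totals without mitochondrial rRNA (limma), 7 of 7 log2 folds were below 0 for PABPC4 over IgG and 6 of 7 for PABPC1 over IgG. Of the single-member values that kept their sign, 16 lost a call and 7 gained one under the settings that keep every library, and 15 lost and 4 gained one with a library left out.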
